A study of Mus musculus with 8 samples.

Results

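The regions described here carried a called peak in exactly 3 of 4 anti-FLAG ChIP-seq peak lists, so that both replicates of one GLI factor met a single replicate of the other. They were chosen by the overlap of the deposited peaks, so the overlap itself is described here and not tested. Peaks of the 4 lists were pooled, and those overlapping by at least 1 bp were merged into 142067 union regions. Of these, 3532 (2.49%) held a peak in exactly 3 lists and are called 3-list regions below. The lists come from undifferentiated mouse ES cells (female, line F1-2.1, day 0) with a Tet-on transactivator and a doxycycline-inducible GLI1-3xFLAG or GLI2-3xFLAG transgene. All cells had received 1 µg/mL doxycycline and 100 nM SAG, an agonist of Smoothened, for 72 hours, on irradiated fibroblast feeders that were settled away at harvest. Each factor had 2 ChIP replicates, which the labels call biological, and 2 input libraries, which were not analysed here.

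GLI1 and GLI2 are transcription factors with zinc fingers through which Hedgehog signals reach the genome. In its resting state the receptor Patched holds Smoothened inactive, and a Hedgehog ligand or an agonist of Smoothened releases it, so that GLI proteins activate their targets in the nucleus. GLI2 is known mainly as the activator present before signaling starts, whereas GLI1 is itself a target gene and an activator, and their related zinc fingers recognise the same kind of DNA motif. The title of the series places this pathway beside Tsix, the antisense RNA that represses Xist on the future active X chromosome.

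Both transgenes were driven by tetracycline response elements in the presence of doxycycline, so the peaks describe induced, tagged protein and not the endogenous factors. Lists from untagged cells were not used here, and the share of these regions that would also be called without the tagged protein was not tested. Lists held between 26511 peaks (GLI2 replicate 1) and 55741 peaks (GLI1 replicate 2). List names in the labels give GLI1 a cutoff of 1e-4 and GLI2 one of 1e-5, and give replicate 1 lists s50 and replicate 2 lists s20, a setting that is not explained. Factor and cutoff, and replicate number and setting, therefore cannot be told apart. Read counts behind the peaks are unknown, so intervals below are exact 95% intervals that cover counting of regions only. Genes, gene starts and the GLI motif were not analysed here, because the reference at hand was of another build than the mm9 of the files. Regions are named by mm9 coordinates counted from 1.

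The 4 combinations differed in size. Both GLI1 lists met GLI2 replicate 1 alone in 453 regions (0.319% of union regions) and GLI2 replicate 2 alone in 1164 (0.819%). Both GLI2 lists met GLI1 replicate 1 alone in 790 regions (0.556%) and GLI1 replicate 2 alone in 1125 (0.792%). For either factor the longer replicate 2 list was the more frequent partner from the other factor (the added list), 2.57 times as often as replicate 1 for GLI2 and 1.42 times for GLI1. The lists themselves differed in length by 1.85 times for GLI2 and 1.31 times for GLI1. Regions with both GLI1 lists numbered 1617 and those with both GLI2 lists 1915, a ratio of 0.844. These counts follow from the overlap that chose the regions and are given without a test.

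**Figure D1:**
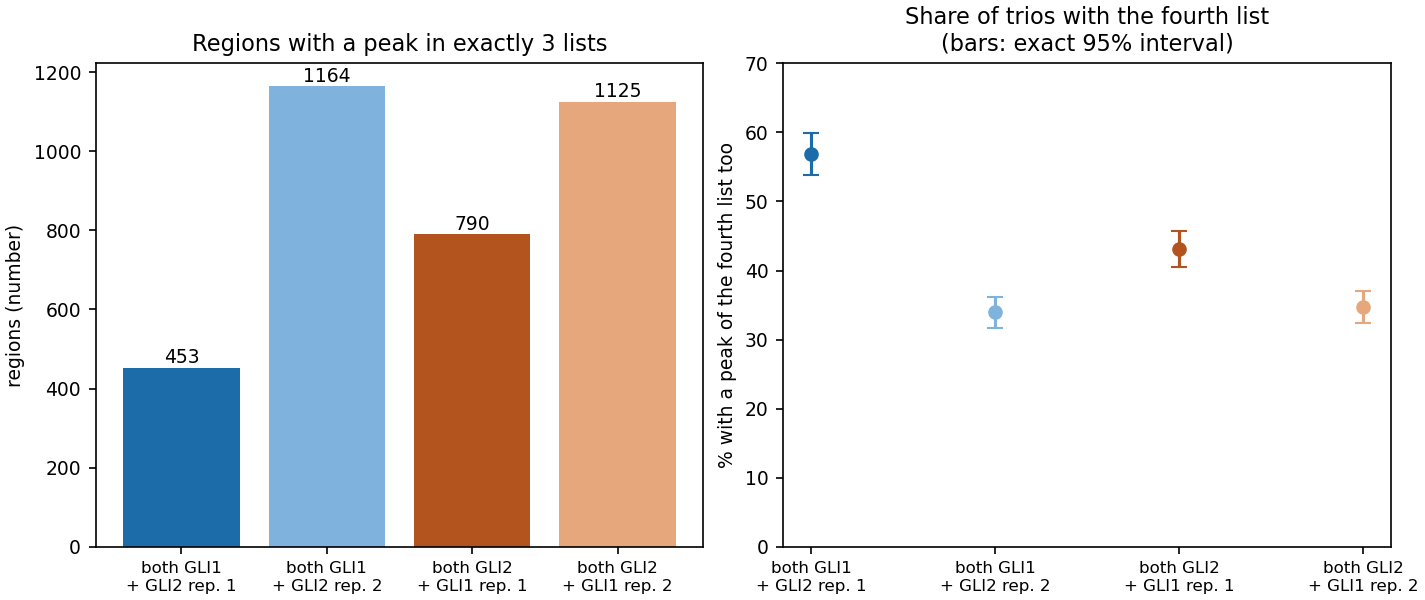
The left panel plots the number of regions (vertical axis) in each combination of 3 lists, from 453 for both GLI1 lists with GLI2 replicate 1 to 1164 for both GLI1 lists with GLI2 replicate 2. The right panel plots, for regions holding that trio of lists, the percent that also held the fourth list, with exact 95% intervals; it is highest, at 56.9%, where GLI2 replicate 2 is the fourth list.

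The sizes of the combinations moved with how the lists were cut. When replicate 1 peaks scoring under 50 were dropped, the counts in the same order were 244, 578, 302 and 1374. The ratio of regions with both GLI1 lists to regions with both GLI2 lists was then 0.490. This cut removed peaks of GLI1 replicate 1 only, since GLI2 replicate 1 scores began at 50.003. The lower ratio is therefore no check on which factor had more regions. With all lists cut to 26511 peaks, replicate 1 by score and replicate 2 by width for want of a usable score, the counts were 254, 321, 434 and 455, 1464 in all. With lists of equal length, regions with both GLI2 lists were the more numerous, at a ratio of 0.647. This cut left GLI2 replicate 1 whole and took replicate 2 peaks by width. It is therefore no check on which factor had more regions either. Dropping a list leaves regions with a peak in all 3 that remain, including those that also held the dropped list. For GLI1, these numbered 1705 when replicate 1 was dropped and 1375 when replicate 2 was. For GLI2 the numbers were 1759 and 1026.

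Regions that held both lists of a factor and a single list of the other also held the fourth list in 33.9 to 56.9% of cases. Where both GLI1 lists and GLI2 replicate 1 had a peak, GLI2 replicate 2 was present in 598 of 1051 regions (56.9%, interval 53.8 to 59.9), and the other 453 are 3-list regions. Among regions with GLI2 replicate 1 and no GLI1 peak, GLI2 replicate 2 was present in 32.3% (31.7 to 33.0). Where both GLI1 lists and GLI2 replicate 2 had a peak, GLI2 replicate 1 was present in 33.9% (31.7 to 36.2), against 17.5% (17.1 to 17.9) of regions with GLI2 replicate 2 and no GLI1 peak. With a single GLI1 list in place of both, GLI2 replicate 2 was present in 31.9% (GLI1 replicate 1) and 53.3% (GLI1 replicate 2) of regions with GLI2 replicate 1. GLI2 replicate 1 was likewise present in 30.5% and 18.8% of those with GLI2 replicate 2. All these shares describe the overlaps that define the regions, and their intervals serve as no test.

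With the factors exchanged, GLI1 replicate 2 was present in 43.1% (40.5 to 45.7) of the 1388 regions with both GLI2 lists and GLI1 replicate 1, against 18.5% (18.1 to 18.9) of those with GLI1 replicate 1 and no GLI2 peak. GLI1 replicate 1 was present in 34.7% (32.5 to 37.0) of the 1723 regions with both GLI2 lists and GLI1 replicate 2, against 14.4% (14.0 to 14.7) of those with GLI1 replicate 2 and no GLI2 peak. With a single GLI2 list, replicate 1 or replicate 2, the shares were 21.2% and 39.2% for GLI1 replicate 2 and 31.5% and 19.3% for GLI1 replicate 1. For each GLI1 and GLI2 list, the higher share came with the same-numbered list of the other factor, which had the same setting s. It lay nearer to the share with both lists of the other factor than to that with none. With the other-numbered list the share lay nearer to that with none. For GLI1 these were 21.2% beside 18.5% (replicate 2) and 19.3% beside 14.4% (replicate 1). For GLI2 they were 31.9% beside 32.3% (replicate 2) and 18.8% beside 17.5% (replicate 1). Replicate number and setting cannot be told apart here. Shares of an added list were lower, but on another base, regions without the other list of its own factor. Of regions with both GLI1 lists and no peak of the remaining GLI2 list, 6.35% (5.80 to 6.94) held GLI2 replicate 1 and 14.8% (14.1 to 15.7) held GLI2 replicate 2. Of regions with both GLI2 lists, the corresponding shares were 10.5% (9.81 to 11.2) for GLI1 replicate 1 and 14.3% (13.5 to 15.1) for GLI1 replicate 2. With GLI1 replicate 1 or replicate 2 alone, the shares were 5.42% and 2.42% for GLI2 replicate 1. They were 5.77% and 10.9% for GLI2 replicate 2. With GLI2 replicate 1 or replicate 2 alone, they were 10.7% and 5.37% for GLI1 replicate 1. For GLI1 replicate 2 they were 6.53% and 13.3%. Wider regions can meet a peak of any list more often, and no adjustment for width was made.

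Peaks in 3-list regions were a small part of each list. They made up 5.66% of GLI1 replicate 1 (2411 peaks), 4.93% of GLI1 replicate 2 (2748), 8.95% of GLI2 replicate 1 (2373) and 6.31% of GLI2 replicate 2 (3087). GLI2 replicate 1, the shortest list, thus had the largest share of its peaks in them.

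Nearly all 3-list regions were simple in shape. A single peak per list formed 3511 of the 3532 regions, and the other 21 held up to 5 peaks. Bases covered by all 3 lists at once were present in 3335 regions, or 94.4% (93.6 to 95.2). The remaining 197 were chains, in which a peak of one list bridged peaks of the others that did not touch. The share with common bases ran from 92.3% (89.4 to 94.6) for both GLI1 lists with GLI2 replicate 1 to 95.7% (94.0 to 97.0) for both GLI2 lists with GLI1 replicate 1. Among all regions with a peak in all 4 lists it was 89.0% (86.2 to 91.4). The stretch common to the lists had a median of 1000 bp, which is also the narrowest peak in any list. In 2406 regions (68.1%) it equalled the narrowest of the peaks, which then lay wholly inside the others. The median width was 1800 bp in 3 combinations and 1600 bp in both GLI2 lists with GLI1 replicate 2, against 1400 bp over all union regions.

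The rule asks for an overlap of 1 bp, and peak borders lie on a grid of 200 bp. Just inside the rule were 12 regions in which the added list overlapped a peak of the others by 200 bp at most. Just outside were 29 of the 13418 regions with both lists of a single factor, where a peak of the other factor touched the border without overlap. Conversely, 5 of the 3-list regions had a peak of the missing list touching their border. They lay on chromosome 1 from 136560801 to 136562600, chromosome 5 from 65093201 to 65095000 and from 97085201 to 97086400, chromosome 13 from 109629001 to 109632600, and chromosome 15 from 81771401 to 81773000.

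The regions with the best replicate 1 scores in each combination show how closely the lists could coincide. Scores are the authors' own values per peak, of unstated unit, and only the replicate 1 lists carried usable ones. For both GLI1 lists with GLI2 replicate 1, the first was on chromosome 4 from 150662401 to 150665400. Its GLI1 peaks were 3000 bp (replicate 1, score 91.7) and 2800 bp wide, and its GLI2 replicate 1 peak 1800 bp (score 115). All 3 peaks shared 1600 bp, and the nearest GLI2 replicate 2 peak lay 4400 bp away. Next came chromosome 4 from 140005801 to 140008000, with scores of 102 for GLI1 and 100.1 for GLI2, and chromosome X from 58273001 to 58275000, with 66.8 and 92.0. On the latter, peaks of 1800, 1000 and 1000 bp shared 800 bp. The last of these 5 lay on chromosome 13 from 101869601 to 101871800 (79.0 and 78.1) and chromosome 8 from 123025001 to 123027000 (66.3 and 90.8), each 3400 bp from a GLI2 replicate 2 peak. Both replicate 1 scores of these 5 regions were in the upper 10% of their lists.

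Among regions of both GLI1 lists with GLI2 replicate 2, the first lay on chromosome 16 from 17559601 to 17561400. Its GLI1 replicate 1 peak was 1800 bp wide with a score of 132, and the GLI1 replicate 2 and GLI2 replicate 2 peaks were both 1600 bp wide with the same borders. The nearest GLI2 replicate 1 peak lay 42000 bp away. It was followed by a region scoring 129 on chromosome 12 from 114143201 to 114145000 and another scoring 117 on chromosome 7 from 91205401 to 91209000. The last of these 5 were on chromosome 11 from 6599001 to 6601000, scoring 114, and chromosome 15 from 77949601 to 77951400, scoring 113. Their nearest GLI2 replicate 1 peaks lay 35200, 69600, 17800 and 6200 bp away. All 5 regions held at least 1200 bp common to the 3 lists.

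For both GLI2 lists with GLI1 replicate 1, the first was on chromosome 2 from 157738201 to 157740400. Its GLI1 and GLI2 replicate 1 peaks had the same borders, at 2200 bp, with scores of 139 for GLI1 and 195 for GLI2, and the GLI2 replicate 2 peak of 1800 bp lay inside them. On chromosome 11 from 55420401 to 55422600 the scores were 140 for GLI1 and 112 for GLI2, and on chromosome 19 from 53116201 to 53118000 they were 104 and 110. Chromosome 2 from 38271801 to 38274800 (89.7 and 123) and chromosome 4 from 133574401 to 133577600 (86.0 and 114) completed the 5. The last had a GLI1 replicate 2 peak only 600 bp beyond its border, while for the other regions the distance was 4800 to 9400 bp.

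For both GLI2 lists with GLI1 replicate 2, the first was on chromosome 14 from 71029401 to 71031200, with 2 GLI2 peaks of 1800 bp (replicate 1 score 174) and a GLI1 replicate 2 peak of 1400 bp. Chromosome 10 from 98973401 to 98975200 followed with a score of 139. On chromosome 1 from 136560801 to 136562600 (score 134) the peaks of all 3 lists had identical borders, and a GLI1 replicate 1 peak touched the region. The regions of chromosome 17 from 29322401 to 29324400, scoring 134, and of chromosome 7 from 139151401 to 139153200, scoring 133, each held 1000 bp common to the lists. Their nearest GLI1 replicate 1 peaks lay 24600 and 4000 bp away.

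**Figure D2:**
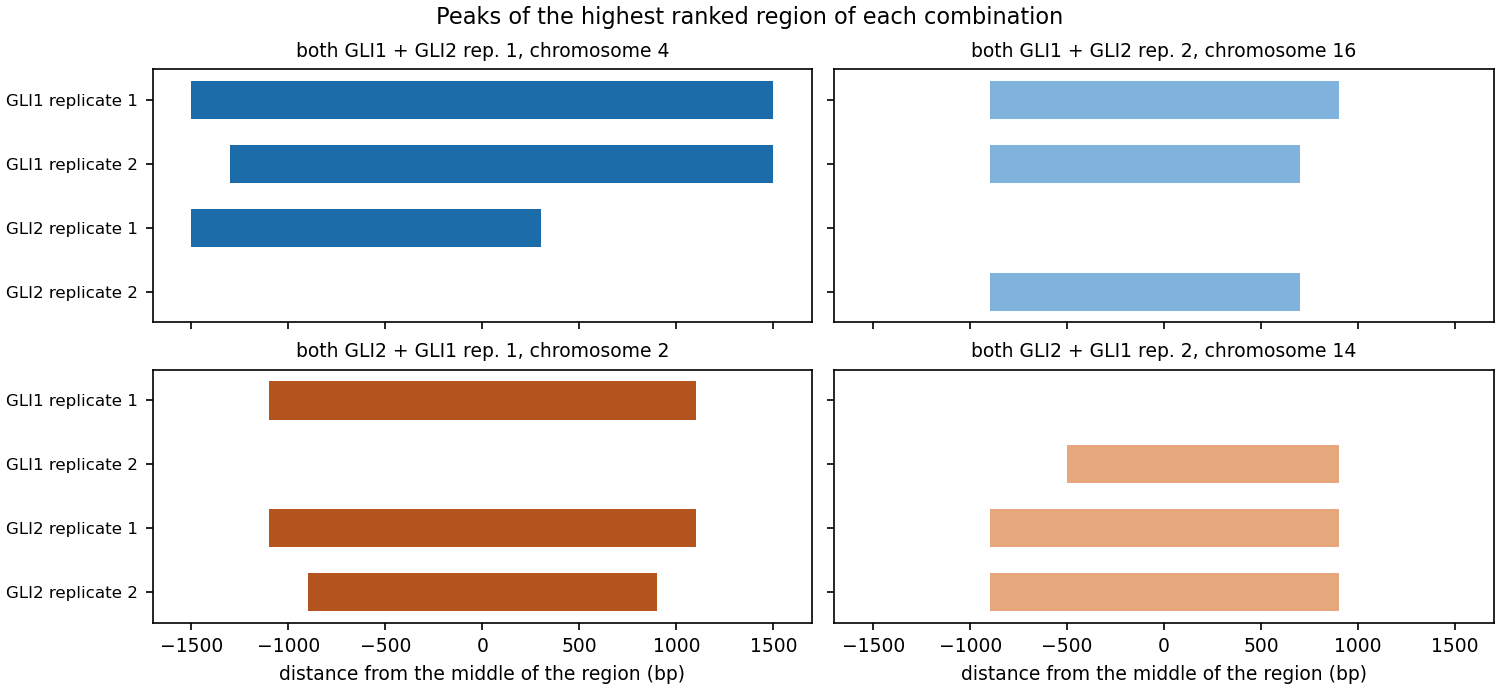
Each panel draws, for the first region named in a combination, the extent of the peak in every list (rows) along the distance from the middle of the region in bp. An empty row is the missing list; on chromosome 16 the GLI1 replicate 2 and GLI2 replicate 2 peaks have the same borders at 1600 bp.

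In the replicate 1 lists, median scores of the doubled factor were above the middle of their list, and those of the added list were near it. Regions with both lists of a single factor and none of the other also lay above the middle, at the 59.0 percentile for GLI1 (16.7% of peaks in the upper 10%) and the 53.8 for GLI2 (12.8%). Over both GLI1 lists with GLI2 replicate 1, the GLI1 replicate 1 peaks had a median score of 50.7, at the 65.2 percentile of their list, and GLI2 replicate 1 peaks one of 58.4, at the 48.9 percentile. Over both GLI2 lists with GLI1 replicate 1 the order was exchanged, with a median of 62.4 for GLI2 replicate 1 (67.3 percentile) and 47.1 for GLI1 replicate 1 (51.1 percentile). The GLI1 peak had the higher percentile in 302 of the 453 regions of the former kind and in 297 of the 790 of the latter. Scores of the factors were hardly related within regions, with Spearman's rho of 0.0967 over the 453 and 0.0670 over the 790, which share libraries and calling settings. These are descriptions, since the score and the overlap that chose the regions come from the same peak calls.

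Where the added list was a replicate 2 list, scores of the doubled factor lay between. They had medians of 49.9 for GLI1 (62.2 percentile) and 60.8 for GLI2 (58.8 percentile). The upper 10% of the GLI1 replicate 1 list by score held 19.4% (15.9 to 23.4) of peaks in both GLI1 lists with GLI2 replicate 1, 17.3% (15.2 to 19.6) in both GLI1 lists with GLI2 replicate 2 and 10.1% (8.10 to 12.4) in both GLI2 lists with GLI1 replicate 1. For the upper 10% of GLI2 replicate 1 the share was 22.9% (20.0 to 26.0) in both GLI2 lists with GLI1 replicate 1, 15.8% (13.7 to 18.0) in both GLI2 lists with GLI1 replicate 2 and 7.71% (5.43 to 10.6) in both GLI1 lists with GLI2 replicate 1. An added replicate 1 list thus contributed scores spread about as in its whole list, and added replicate 2 lists had no usable score. Regions of all 4 lists had higher medians, at the 74.5 percentile for GLI1 and the 72.0 for GLI2.

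**Figure D3:**
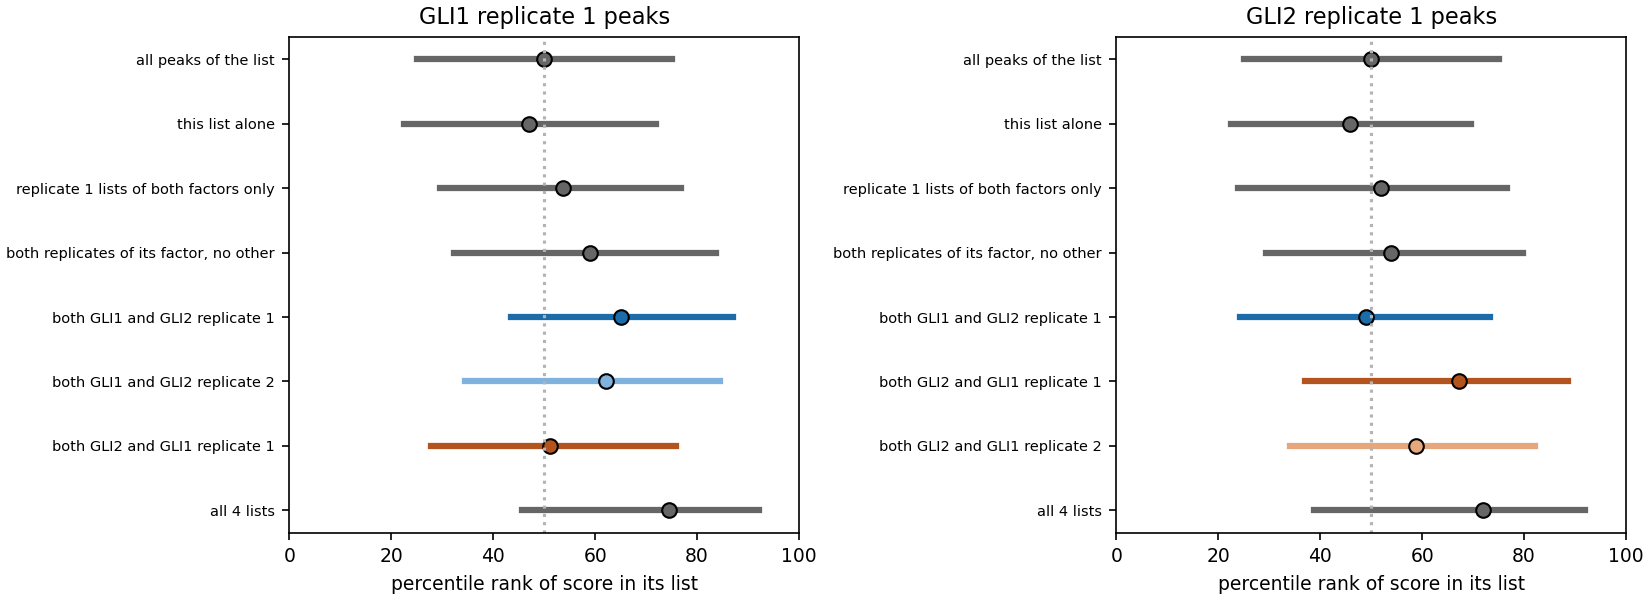
The horizontal axis is the percentile rank of a peak's score within its replicate 1 list, with GLI1 on the left and GLI2 on the right; points are medians and lines run from the lower to the upper quartile over peaks. Colours mark the combinations of 3 lists: medians of the doubled factor lie at 58.8 to 67.3, those of the added list at 51.1 and 48.9.

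Peak centres lay close together in all pairs of lists. In regions with a single peak per list, the median distance between centres was 100 or 200 bp for every pair, the size of a grid step or less. Centres of the same factor lay within 200 bp in 68.4% (63.9 to 72.6) of regions of both GLI1 lists with GLI2 replicate 1 and in 72.2% (69.5 to 74.8) of both GLI1 lists with GLI2 replicate 2. For GLI2 the shares were 77.2% (74.1 to 80.0) and 78.9% (76.3 to 81.2) in regions with GLI1 replicate 1 and replicate 2. Between factors, the replicate 2 lists lay closest. The replicate 1 lists lay farther apart than the other pair between factors in the same combination. GLI1 and GLI2 replicate 2 centres lay within 200 bp in 78.0% (75.5 to 80.4) and 74.8% (72.2 to 77.3) of the regions that held both, whereas GLI1 and GLI2 replicate 1 centres did so in 58.8% (54.2 to 63.4) and 63.7% (60.2 to 67.1). Pairs that shared neither factor nor number lay at 62.6% to 70.7%. Within a combination they were above the replicate 1 pair or below the replicate 2 pair. In both GLI1 lists with GLI2 replicate 2, the replicate 2 lists of different factors thus lay within 200 bp more often than the GLI1 replicates did. Replicate 2 peaks were also called with another setting, and its part in this was not tested.

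Identical borders were least frequent between the replicate 1 lists of GLI1 and GLI2, in 7.30% of the regions of both GLI1 lists with GLI2 replicate 1. They were most frequent between the GLI2 replicates, in 18.6% of the regions of both GLI2 lists with GLI1 replicate 2. The centres of the doubled factor were strictly the closest pair of the 3 in 25.2 to 35.7% of regions and strictly the farthest apart in 9.68 to 13.9%. Ties counted as neither, and distances between centres came in steps of 100 bp. The shares of the other pairs were not computed, so these values cannot be set against an even split among the pairs.

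**Figure D4:**
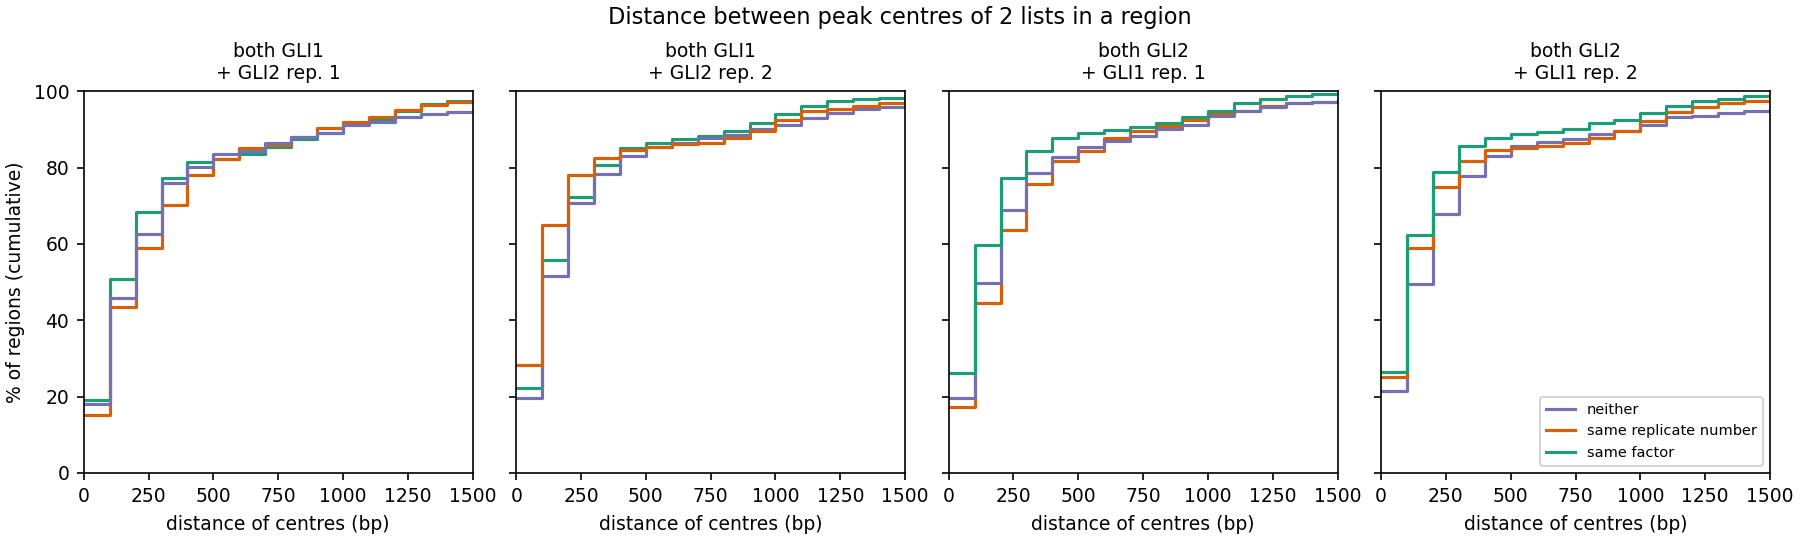
Each panel shows for a combination the cumulative percent of regions (vertical axis) against the distance between the peak centres of 2 lists in bp, with a line per pair of lists. Green is the pair of replicates of a factor, orange the pair with the same replicate number and purple the pair that shares neither; at 200 bp the lines lie between 58.8% and 78.9%.

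Peaks of 3-list regions were of similar width in the 4 lists. The median was 1400 bp in GLI1 replicate 1, 1200 bp in GLI1 replicate 2 and 1400 bp in both GLI2 lists. GLI1 minus GLI2 was -100 bp (GLI1 1300 ± 141 bp, GLI2 1400 ± 0 bp, SD, n = 2 lists), and a two-sided exact permutation test over lists gave p = 1 (0.333 is the smallest p that 2 against 2 can give). With lists of equal length it was 100 bp, so no direction is given. Mean widths were 1527 and 1469 bp for GLI1 and 1462 and 1486 bp for GLI2, against 1431, 1357, 1366 and 1359 bp in the same order for all other peaks of these lists. Means of the 3-list peaks were higher in each list, and the overlap that chose them favours wide peaks.

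A peak of the missing list lay within 5 kb of 606 of the 3-list regions, or 17.2% (15.9 to 18.4), near the share over all union regions lacking those lists. For GLI2 replicate 2 this was 17.0% (13.7 to 20.8), beside 18.6% of all union regions without that list. For GLI2 replicate 1 it was 12.1% (10.3 to 14.1), beside 10.8%. GLI1 replicate 2 was near 23.3% (20.4 to 26.4), beside 20.9%, and GLI1 replicate 1 near 18.1% (15.9 to 20.5), beside 16.9%. At this distance each of the 4 intervals holds the share found over all regions lacking that list. Within 20 kb the shares were 55.4% (50.7 to 60.0) for GLI2 replicate 2, beside 55.0%, and 40.5% (37.6 to 43.3) for GLI2 replicate 1, beside 36.1%. They were 65.3% (61.9 to 68.6) for GLI1 replicate 2, beside 58.2%, and 54.2% (51.3 to 57.2) for GLI1 replicate 1, beside 51.0%. The last 3 intervals thus lay above the share over all regions, as did that of GLI1 replicate 2 within 2 kb, 11.1% (9.03 to 13.5) beside 8.99%. These intervals cover counting of regions only and serve as no test. The 3-list regions were also wider than all union regions, and no adjustment for width was made. The median distance to the missing list was 16800 bp for GLI2 replicate 2, 27100 bp for GLI2 replicate 1, 12600 bp for GLI1 replicate 2 and 17800 bp for GLI1 replicate 1. Over all regions without these lists it was 17200, 31600, 15800 and 19600 bp.

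Chromosome X, the chromosome of Tsix and Xist, held 106 of the 3-list regions, or 3.00% (2.46 to 3.62), against 5.27% (5.15 to 5.39) of all union regions. The share was also below that of all regions in those with a peak in all 4 lists (1.67%, 0.805 to 3.05), in both GLI1 lists only (4.33%, 3.85 to 4.84), in both GLI2 lists only (4.24%, 3.77 to 4.75) and in the replicate 1 lists of both factors only (2.85%, 2.11 to 3.76). It was 6.34% (5.67 to 7.06) in the replicate 2 lists of both factors only, so a low share is not particular to 3-list regions. The combinations were not alike. Both GLI2 lists with GLI1 replicate 1 had 11 regions on X (1.39%, 0.697 to 2.48), and both GLI2 lists with GLI1 replicate 2 had 51 (4.53%, 3.39 to 5.92). Regions of both GLI1 lists lay between, with 11 (2.43%, 1.22 to 4.30) for GLI2 replicate 1 and 33 (2.84%, 1.96 to 3.96) for GLI2 replicate 2. Pooled by the added list, X held 1.77% (1.11 to 2.67) of regions completed by replicate 1 and 3.67% (2.94 to 4.52) of those completed by replicate 2. Of regions in a single list, X held 5.20% (4.95 to 5.46) for GLI1 replicate 1 and 5.42% (5.20 to 5.65) for GLI1 replicate 2, with overlapping intervals. For GLI2 it held 4.77% (4.42 to 5.13) in replicate 1 and 6.14% (5.87 to 6.41) in replicate 2. With a list dropped, regions in all 3 that remained included those that also held the dropped list. They had 1.45% on X without GLI1 replicate 2 and 3.52% without GLI1 replicate 1. For GLI2 the shares were 2.44% with replicate 1 dropped and 1.85% with replicate 2 dropped.

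The 3-list regions of X with the highest replicate 1 scores included the region from 58273001 given above. Another of both GLI1 lists with GLI2 replicate 1 lay from 71114001 to 71115800 (scores 60.2 for GLI1 and 71.2 for GLI2). Both GLI1 lists with GLI2 replicate 2 met from 130240201 to 130242000 (71.1) and from 92674201 to 92676000 (70.2). Both GLI2 lists with GLI1 replicate 1 met from 72100601 to 72104800, where the GLI2 replicate 1 score was 497 and the GLI1 score 80.1, and from 139916601 to 139918400 (GLI2 101, GLI1 78.8). The former had replicate 1 peaks of both factors with the same borders at 2000 bp, inside a GLI2 replicate 2 peak of 4200 bp, and the nearest GLI1 replicate 2 peak lay 26400 bp away. Both GLI2 lists with GLI1 replicate 2 met from 34352601 to 34356600 (GLI2 score 91.9) and from 98966601 to 98968400 (88.4). Their place relative to genes was not analysed.

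Over the 4 combinations together, chromosomes 2 and 9 were low as well. Of union regions, 1.24% (0.998 to 1.52) on chromosome 2, 1.50% (1.17 to 1.88) on chromosome 9 and 1.42% (1.16 to 1.71) on X had a peak in exactly 3 lists. On the 17 other autosomes the share ran from 2.44% to 3.00%, so these 3 chromosomes lay apart. They also had fewer union regions per Mb between the first and last peak, 41.1 on chromosome 2, 40.3 on chromosome 9 and 45.8 on X, against 50.1 to 62.8 on the other autosomes. The part of this lower density in the share was not tested. Chromosome 12, picked after its values were seen, held 12 regions (2.65%, 1.38 to 4.58) of both GLI1 lists with GLI2 replicate 1, against 6.46 to 6.70% of the other combinations. It held 5.23% of all union regions. Chromosome 14 likewise held 11 regions (2.43%) of that combination, against 4.43 to 5.07% of the others and 4.57% of all union regions. The 15 union regions of chromosome Y included 0 with exactly 3 lists, which allows a share of up to 21.8%.

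**Figure D5:**
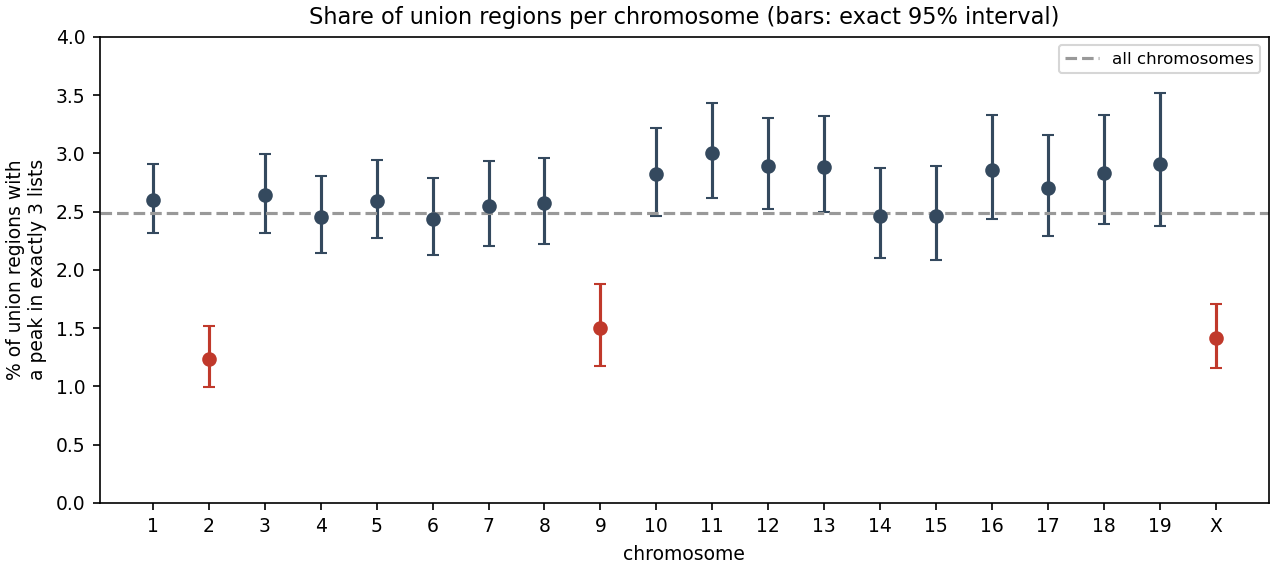
Percent of union regions with a peak in exactly 3 lists (vertical axis) per chromosome (horizontal axis), with exact 95% intervals and a dashed line at the 2.49% of all chromosomes. Chromosomes 2, 9 and X, coloured red after their values were seen, lie between 1.24% and 1.50%, below the 2.44 to 3.00% of the 17 other autosomes.

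The median distance from a 3-list region to the nearest other was 197400 bp, and 140 (3.96%, 3.34 to 4.66) had another within 10 kb. The closest pair lay on chromosome 3, from 28159601 to 28161400 (both GLI1 lists with GLI2 replicate 2) and from 28162001 to 28163800 (both GLI2 lists with GLI1 replicate 1), 600 bp apart. Of the 71 neighbouring pairs within 10 kb, 20 (28.2%) were of the same combination, where each combination made up 12.8 to 33.0% of 3-list regions. No comparison value was computed for this share or for the 3.96%. In windows of 1 Mb the median number was 1, and 876 of 2582 windows (33.9%) that held a union region held no 3-list region, while 105 (4.07%) held 5 or more. The fullest windows held 9, on chromosome 8 from 123000001 to 124000000, chromosome 12 from 109000001 to 110000000 and chromosome 3 from 34000001 to 35000000. These windows also held 102, 97 and 86 union regions, against a median of 54. Across windows the numbers of 3-list and union regions had a Spearman's rho of 0.520 (n = 2582 windows, which share the lists and count 3-list regions in both numbers).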

How the data were processed

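Bases were called with CASAVA 1.7 and BWA and the build mm9 are named, per the submitters' processing notes. No source used here names the peak caller. Each ChIP library had its own deposited peak list without a header, with 5 columns (position, segment name, score), and went to the ChIP sample of the same factor, day and replicate number by title. The 8 samples were grouped by title into GLI1 and GLI2 ChIP and input. Both replicate 1 input samples are labelled with the anti-FLAG antibody although their titles say input. The score is the authors' deposited value, with no unit stated, and began at 40.014 (GLI1) and 50.003 (GLI2) in replicate 1. In replicate 2 it was not used, being 0 for 55722 of 55741 peaks of GLI1 and for 48898 of 48921 of GLI2. A single GLI2 replicate 1 score was infinite and was ranked first. All borders were multiples of 200 bp.

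Union regions joined peaks overlapping by at least 1 bp. Common bases are those covered by every list of a region. A score percentile is the rank within a list, with ties averaged. Named regions are, per combination, the 5 with the highest mean percentile of replicate 1 scores among regions with common bases, and the 2 highest on X. The design also listed Hedgehog, pluripotency, X inactivation and fibroblast genes, which were not analysed here for want of a reference of the files' build. Shares carry Clopper-Pearson 95% intervals, and lists of GLI1 and GLI2 were compared with an exact permutation test. Members, lists and measures were chosen with earlier results of these data known. The region code was tested on simulated data against a brute-force count. Alternatives are given in the closing section. Python 3.11.15, numpy 2.4.6, pandas 2.3.3, scipy 1.17.1 and matplotlib 3.10.9 were used.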

Additional observations from a re-analysis of the deposited data

How the results depend on the processing

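The number of 3-list regions stayed within 1.5 times of 3532 with peaks set to 500 bp, a reciprocal overlap of 50%, joining within 500 bp, a score of at least 50 in replicate 1 lists, removal of the widest 1% and, chosen after seeing the data, only regions with a single peak per list and common bases (2498 to 3853). It was 1464 with lists of equal length (replicate 1 by score, replicate 2 by width). With a list left out, regions in all 3 that remained numbered 1026 to 1759. These include regions with a peak in all 4 lists, which are not 3-list regions. The ratio of regions with both GLI1 lists to those with both GLI2 lists was 0.490 with a score of at least 50 and 0.647 with equal lists, and 0.806 to 0.850 in the other 5 settings. The score setting removed peaks of GLI1 replicate 1 only, and the equal lists left GLI2 replicate 1 whole. The share with common bases was 100% with reciprocal overlap and 96.3% without the widest 1%. The X share was 2.05% with equal lists and, over regions in all 3 lists that remained, 1.45 to 3.52% with a list left out. The missing list was near 7.70% of regions at 2 kb, beside 4.30 to 8.99% over all regions lacking each list, and near 52.3% at 20 kb, beside 36.1 to 58.2%. GLI1 minus GLI2 median peak width, -100 bp, was 100 bp with equal lists, -200 to 0 bp with a list left out, and -100 bp with the replicate number as a block (exact sign-flip p = 1). The difference was 0 bp within replicate 1 and -200 bp within replicate 2. Every sign flip then gives the same size, so this p could take no other value and says nothing about width. Same-numbered lists shared the setting s in the labels, and the labels name no shared culture or day. The correlation of their deviations was 0.0261 over union regions and -0.0405 over 3-list regions. It is not read as a lack of sharing between same-numbered lists. Regions in only 2 lists of different factors numbered 4861 for both replicate 2 lists and 1686 for both replicate 1 lists. They numbered 1804 for GLI1 replicate 1 with GLI2 replicate 2 and 986 for GLI1 replicate 2 with GLI2 replicate 1. Depth of the libraries is unknown. The alternatives for gene starts and the GLI motif were not run.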

Other observations

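Of the 8 widest 3-list regions listed, 4 had no base covered by all 3 lists. The list ended within a tie at 6400 bp, which is also the greatest width in both GLI2 lists with GLI1 replicate 1, a combination not listed. The widest, 8000 bp on chromosome 10 from 127632801 to 127640800, held 4 peaks of both GLI1 lists and GLI2 replicate 2 with 1000 bp in common. The next, 7600 bp on chromosome 8 from 11875001 to 11882600, held 3 peaks of both GLI2 lists and GLI1 replicate 2 and no base in common. Those on chromosome 5 from 115024601, chromosome 10 from 127139801 and chromosome 1 from 39448401 also had none. Those on chromosome 8 from 73212401 and chromosome 3 from 34534001 had 800 bp and that on chromosome 7 from 3619401 had 1000 bp in common, against a median of 1000 bp over 3-list regions with common bases. They were chosen after their widths were seen.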
